A study of Mus musculus with 2 samples.

Results

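The 10 genes described here are the D cyclins (*Ccnd1*, *Ccnd2* and *Ccnd3*) and the CDK inhibitors of the CIP/KIP family (*Cdkn1a*, *Cdkn1b* and *Cdkn1c*) and of the INK4 family (*Cdkn2a*, *Cdkn2b*, *Cdkn2c* and *Cdkn2d*), picked by gene symbol from the 25810 genes with a symbol in the deposited tables. They were measured by RNA-Seq in 2 libraries of mammary epithelial cells (MECs) from inguinal glands at lactation day 3, 1 library from wild-type (WT) and 1 from *Igfbp7*-/- mice. *Igfbp7* encodes a secreted protein that binds insulin-like growth factors. The *Igfbp7*-/- mice lacked the first coding exon in the germline, so the gene was lost in every cell type and not in MECs alone. The labels give the genetic background of both groups as C57BL/6, whereas the methods name CD1. In both groups, cells carrying CD45, Ter119 and CD31 (CD35 in the labels) had been removed with magnetic beads before RNA extraction. The age of the mice, the number of mice in each library and the number of embryonic stem cell clones behind the line were not given in the sources used here. With 1 library per genotype no difference between genotypes could be tested, and every interval below is a 95% Clopper-Pearson interval on read pairs that covers counting error only.

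D cyclins bind CDK4 and CDK6, and the active kinases phosphorylate the retinoblastoma protein, which frees E2F factors and opens the way to DNA replication. INK4 proteins bind CDK4 and CDK6 and keep D cyclins out, whereas CIP/KIP proteins bind cyclin-CDK complexes and chiefly inhibit those with CDK2. In the mammary gland cyclin D1 is best known for its role in the growth of lobules and alveoli during pregnancy, and the secretory alveolar cells of lactation are mostly out of the cell cycle.

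The *Igfbp7* gene itself had 5224 reads (152.2 RPM, the read count scaled to the size of the library) in WT against 37 reads (1.06 RPM) in *Igfbp7*-/- MECs, so the libraries matched their labels. The reads on the 10 genes came to 17108 in WT and 14032 in *Igfbp7*-/-, out of library totals of 34327854 and 35016847 reads. Of those totals, 82.3% and 72.3% fell on listed genes. Markers of the secretory epithelium were abundant in both libraries, with *Csn2* (β-casein) at 53087 and 19970 RPM. Markers of the removed cells were still present. The 7 endothelial markers summed to 1177 RPM in WT against 384.8 RPM in *Igfbp7*-/-, the 9 leukocyte markers summed to 199.5 and 81.7 RPM, and *Hbb-b1*, an erythroid marker, had 668.9 and 696.9 RPM. At this depth 3 read pairs were worth 0.175 RPM in WT against 0.171 RPM in *Igfbp7*-/-, and a gene at or under that level was treated as not measurable.

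The ratios of the INK4 genes *Cdkn2c* and *Cdkn2b* lay on opposite sides of 1, that of *Cdkn2b* within counting error of 1. For this reason the sequences before their starts are given ahead of the values, as a description only. A link between these sequences and the levels was not tested. They are the 250 bases that precede each RefSeq start, from a table of the GRCm38.p6 build, and each matched the NCBIM37 genome (mm9, the build named for the files) at 1 place. Of the 10 genes, 7 had an entry in that table, with 11 starts in all. *Ccnd1*, *Ccnd2* and *Cdkn1c* had none. Capitals mark GGGCGG (the GC box, bound by Sp1) and TGACGTCA (bound by CREB family factors), on either strand and without overlap between the motifs.
*Cdkn2c*, outer start, chr4:109339362-109339611, minus strand: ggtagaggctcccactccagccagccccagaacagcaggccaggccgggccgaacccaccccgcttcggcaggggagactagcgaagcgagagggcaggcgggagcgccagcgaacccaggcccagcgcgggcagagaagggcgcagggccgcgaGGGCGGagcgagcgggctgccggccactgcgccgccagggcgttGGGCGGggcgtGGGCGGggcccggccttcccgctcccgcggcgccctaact
*Cdkn2c*, inner start, chr4:109337978-109338227, minus strand: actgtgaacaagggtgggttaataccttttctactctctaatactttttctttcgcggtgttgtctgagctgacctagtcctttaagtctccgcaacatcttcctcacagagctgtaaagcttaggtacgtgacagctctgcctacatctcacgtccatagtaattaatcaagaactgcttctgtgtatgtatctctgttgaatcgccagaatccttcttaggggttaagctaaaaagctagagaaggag
*Cdkn2b*, chr4:88956942-88957191, minus strand: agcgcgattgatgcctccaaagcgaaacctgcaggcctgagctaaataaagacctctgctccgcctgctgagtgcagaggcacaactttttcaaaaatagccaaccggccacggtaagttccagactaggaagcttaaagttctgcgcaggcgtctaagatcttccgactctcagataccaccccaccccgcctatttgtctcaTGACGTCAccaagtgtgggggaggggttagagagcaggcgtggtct
The stretch before the outer *Cdkn2c* start had a GC content of 77.2% and 3 GC boxes, and the stretch before its inner start had 42.8% and none. Outer and inner refer to the RefSeq starts. In the NCBIM37 annotation *Cdkn2c* runs to position 109339794 on the minus strand, so both stretches lie inside the annotated gene. The *Cdkn2b* stretch had 53.6% and 1 CREB motif. GC boxes were not particular to *Cdkn2c* among the 10 genes, and the stretch before the *Cdkn2d* start also held 3. Over all 32851 windows of that length, the median GC content was 52.4%, 32.7% held a GC box and 1.55% held the CREB motif. E2F letters (TTTCCCGC or TTTGGCGC, in 1.30% of windows), FOXO letters (GTAAACA, 3.17%) and STAT letters (TTCNNNGAA, 7.02%) were also searched on both strands and were in none of these 3 stretches. The deposited tables give 1 count per gene, so reads from the outer and the inner start of *Cdkn2c* could not be separated.

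Among the 10 genes, 3 had a level at least 1.5 times lower in the *Igfbp7*-/- library, a threshold taken from the study, namely *Ccnd2*, *Cdkn1c* and *Cdkn2c*, and 0 were higher. The count covers the 8 genes that reached 1 RPM in either library, since *Cdkn2a* and *Cdkn2d* stayed below that minimum. Of all 14026 genes past the same minimum, 23.4% were lower and 21.9% were higher at this fold, 45.3% in either direction. The 3 lower genes are 37.5% of 8, a share set here beside the 23.4% and not tested against it. Of the 8 genes, 7 had a ratio below 1 and the median log2 ratio was -0.49, beside a median of 0.04 and quartiles of -0.53 and 0.52 over all genes tested. The counting interval excluded equal expression for 6 of the 8, the exceptions being *Ccnd3* and *Cdkn2b*. The share of all genes with such an interval was not computed, so the 6 are not read as a trait of these genes. At high counts a small difference is enough, as for *Hbb-b1* with a ratio of 1.04 (1.02 to 1.07). These statements hold for the deposited RPM. When the reads were scaled to the listed genes instead, the median log2 ratio of all genes was 0.22, and of all calls at this fold 37.8% were lower, compared with 51.7% in the deposited RPM.

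**Figure D1:**
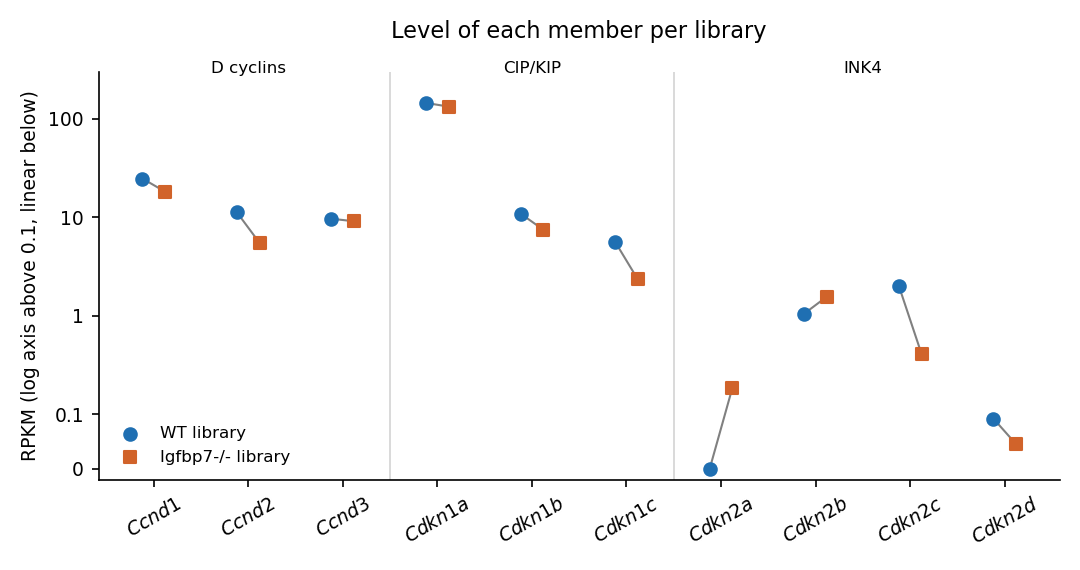
Level of the 10 genes in the WT (blue circles) and the Igfbp7-/- library (orange squares) in RPKM (RPM per kilobase of gene length), on an axis that is logarithmic above 0.1 and linear below. Each point is 1 library and has no replicate. Cdkn1a stands highest in both libraries, and the INK4 genes lie lowest.

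*Ccnd1*, which encodes cyclin D1, was the most abundant D cyclin, with 3209 reads (93.5 RPM) in WT against 2406 reads (68.7 RPM) in *Igfbp7*-/-. It was 1.36-fold lower in *Igfbp7*-/- (interval 1.26 to 1.47), short of 1.5. *Ccnd2*, which encodes cyclin D2, had 2211 reads (64.4 RPM) in WT against 1103 reads (31.5 RPM) in *Igfbp7*-/-. Its level in *Igfbp7*-/- was 2.04-fold lower (1.85 to 2.27), and 13.7% of all genes tested had a lower ratio. *Ccnd3*, which encodes cyclin D3, had 703 reads (20.5 RPM) and 676 reads (19.3 RPM). Its ratio of 0.94 (0.81 to 1.10) was within counting error of 1. The D cyclins thus ranged from a nearly equal level for *Ccnd3* to a level about halved for *Ccnd2*.

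Per gene length the order of the D cyclins differed between the libraries. In WT the levels were 24.6 RPKM for *Ccnd1*, 11.2 RPKM for *Ccnd2* and 9.61 RPKM for *Ccnd3*, so the level of *Ccnd2* was 1.16 times that of *Ccnd3*. In *Igfbp7*-/- they were 18.1, 5.46 and 9.06 RPKM, and *Ccnd2* stood at 0.60 times *Ccnd3*. *Ccnd1* was above both others in each library. The summed level of the D cyclins was 45.4 RPKM in WT and 32.6 RPKM in *Igfbp7*-/-, 28.1% lower. Ratios within a library do not depend on how the libraries were scaled. *Ccnd2* took 36.1% (34.4 to 37.8%) of the D cyclin read pairs in WT and 26.3% (24.5 to 28.3%) in *Igfbp7*-/-, and these intervals did not overlap. *Ccnd1* took 52.4% (50.6 to 54.2%) and 57.5% (55.4 to 59.6%), and *Ccnd3* 11.5% (10.4 to 12.7%) and 16.2% (14.6 to 17.8%). The cyclin D2 transcript was therefore a smaller part of the D cyclin pool in the *Igfbp7*-/- library at any scaling, by more than counting error.

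**Figure D2:**
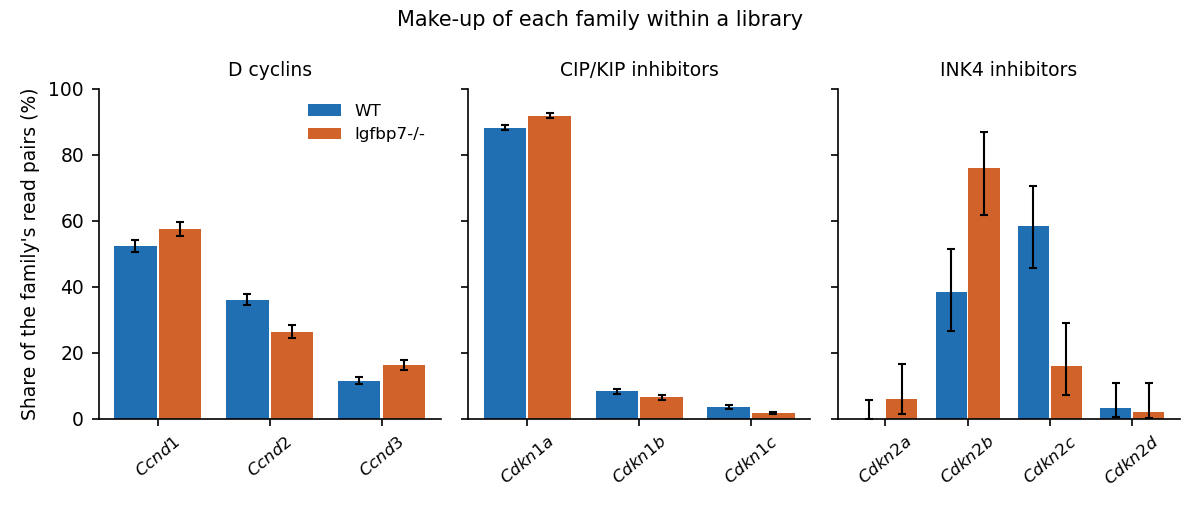
Share of each family's read pairs taken by each of its genes, in percent, in the WT (blue) and the Igfbp7-/- library (orange). Bars show 1 library each, and error bars are 95% Clopper-Pearson intervals. The share of Ccnd2 is 36.1% in WT and 26.3% in Igfbp7-/-, and that of Cdkn2c is 58.5% and 16%.

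*Cdkn1a*, which encodes p21, a CIP/KIP inhibitor induced by p53 and by other signals, was by far the most abundant of the 10 genes. It had 9584 reads (279.2 RPM) in WT against 8962 reads (255.9 RPM) in *Igfbp7*-/-. The ratio was 0.92 (0.88 to 0.96), a difference of 8.33%. The interval excluded 1 for the deposited RPM, but the log2 ratio ran from -0.16 to 0.07 over the scalings and other settings, so a direction could not be given. Per gene length its level was 144.2 RPKM in WT and 132.2 RPKM in *Igfbp7*-/-, above 98.1% and 98.2% of the genes tested. It was 5.86 times the level of *Ccnd1* in WT and 7.30 times in *Igfbp7*-/-.

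*Cdkn1b*, which encodes p27, an inhibitor that holds quiescent cells out of the cycle, had 895 reads (26.1 RPM) in WT against 626 reads (17.9 RPM) in *Igfbp7*-/-. It was 1.46-fold lower in *Igfbp7*-/- (1.26 to 1.69), just short of the threshold. *Cdkn1c*, which encodes p57 and is imprinted with expression from the maternal allele, had 375 reads (10.9 RPM) in WT against 159 reads (4.54 RPM) in *Igfbp7*-/-. It was 2.41-fold lower (1.85 to 3.18), and 10.3% of all genes tested had a lower ratio. All 3 CIP/KIP genes thus had deposited RPM values below those of WT, 1 of them past 1.5 times.

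Within the CIP/KIP family, *Cdkn1a* took 88.3% of the read pairs in WT (87.4 to 89.2%) and 92.0% in *Igfbp7*-/- (91.2 to 92.7%). *Cdkn1b* took 8.24% (7.52 to 9.0%) and 6.42% (5.75 to 7.15%), and *Cdkn1c* 3.45% (2.98 to 3.97%) and 1.62% (1.29 to 2.02%). *Cdkn1c* was also a smaller part of the pairs of *Cdkn1b* and *Cdkn1c* together, 29.5% (26.0 to 33.2%) in WT and 20.2% (16.3 to 24.5%) in *Igfbp7*-/-. These shares do not depend on the scaling. Summed over the family, the level was 160.6 RPKM in WT and 142.0 RPKM in *Igfbp7*-/-, 11.6% lower for the deposited scaling. *Cdkn1a*, for which no direction could be given over the scalings, made up 89.8% of this sum in WT and 93.1% in *Igfbp7*-/-. No direction is therefore given for the sum. The summed CIP/KIP level was 3.54 times the summed D cyclin level in WT and 4.35 times in *Igfbp7*-/-.

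The INK4 genes were expressed at low levels, and their values rest on few reads. *Cdkn2c*, which encodes p18, had 77 reads (2.24 RPM) in WT against 16 reads (0.46 RPM) in *Igfbp7*-/-. It was 4.91-fold lower in *Igfbp7*-/- with a wide interval (2.23 to 12), and 3.17% of all genes tested had a lower ratio. *Cdkn2b*, which encodes p15, an inhibitor known to be induced by TGF-beta, had 50 reads (1.46 RPM) in WT against 76 reads (2.17 RPM) in *Igfbp7*-/-. It was the only one of the 8 genes with a ratio above 1, at 1.49 (0.88 to 2.58), and that interval included 1. A difference of *Cdkn2b* was therefore not detectable at this depth.

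*Cdkn2a*, whose single row covers both the p16 and the p19Arf transcripts, had 0 reads in WT, which allows up to 3 read pairs or 0.175 RPM, and 6 reads (0.17 RPM) in *Igfbp7*-/-. The 3 read pairs in *Igfbp7*-/- are within that limit, and the interval of the ratio began at 0.41 and had no upper bound. *Cdkn2d*, which encodes p19 of the INK4 family, had 4 reads (0.12 RPM) in WT against 2 reads (0.06 RPM) in *Igfbp7*-/-, so no fold is given. Both transcripts were thus at or under the limit of measurement in both libraries. The gap between *Cdkn2a* and *Cdkn2b*, neighbours on chromosome 4, is 11640 bp in the NCBIM37 annotation.

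The INK4 read pairs were divided differently between *Cdkn2c* and *Cdkn2b* in the libraries. *Cdkn2c* took 58.5% (45.6 to 70.6%) of the INK4 read pairs in WT and 16% (7.17 to 29.1%) in *Igfbp7*-/-. *Cdkn2b* took 38.5% (26.7 to 51.4%) in WT and 76% (61.8 to 86.9%) in *Igfbp7*-/-. Neither pair of intervals overlapped, on 65 and 50 pairs in all. These genes held nearly all of the INK4 pairs, so their shares mirror each other and are not separate results. Of the pairs of these 2 genes alone, *Cdkn2c* had 60.3% (47.2 to 72.4%) in WT and 17.4% (7.82 to 31.4%) in *Igfbp7*-/-, so that a lead of *Cdkn2c* in WT was within counting error. The summed level of the family was 3.14 RPKM in WT and 2.20 RPKM in *Igfbp7*-/-, and the D cyclins stood at 14.4 and 14.9 times the INK4 level. These sums turn on the gene length of *Cdkn2c*. Per kilobase of annotated exons, an alternative added after seeing the data, *Cdkn2c* had a level of 0.84 and *Cdkn2b* of 1.05 in WT, the INK4 sums were 1.97 and 1.92, and the D cyclins stood at 22.7 times the INK4 level in WT and 16.7 times in *Igfbp7*-/-.

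**Figure D3:**
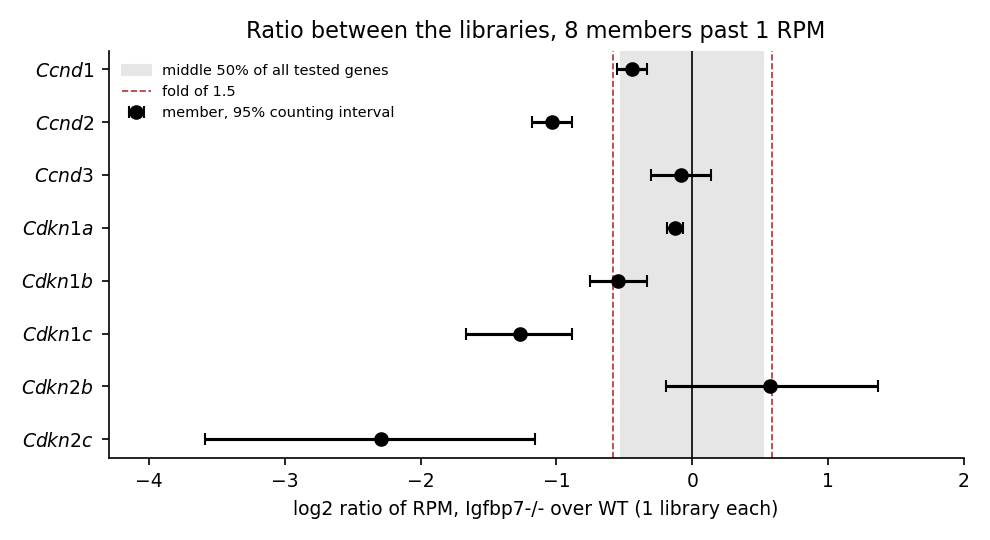
Log2 ratio of RPM, Igfbp7-/- over WT, of the 8 genes that reached 1 RPM in either library (points, 1 library per genotype) with 95% Clopper-Pearson intervals on read pairs. Dashed lines mark a fold of 1.5 and the grey band the quartiles of all 14026 genes tested, -0.53 to 0.52. Ccnd2, Cdkn1c and Cdkn2c lie wholly below the lower dashed line.

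The positions and neighbours of the genes bear on these counts. In the NCBIM37 build *Ccnd2* is found at chr6:127075797-127101066 and *Ccnd1* at chr7:152115836-152125774, both on the minus strand. *Cdkn1c* is at chr7:150644255-150646955 and *Cdkn2c* at chr4:109333481-109339794, again on the minus strand. *Cdkn1a* is at chr17:29227924-29237667 on the plus strand. The GENCODE annotation has a gene on the other strand that overlaps *Ccnd1* (*Oraov1*), *Ccnd2* (9330179D12Rik) and *Ccnd3* (*Bysl*), and none for the other 7. The library kit kept the strand, but whether the counting used it is not given in the sources used here, so part of the D cyclin reads may belong to these neighbours. The gene length behind the RPKM of *Ccnd2* was 5772 bp, close to the 5701 bp of its annotated exons. For *Cdkn2c* it was 1119 bp against 2686 bp, and for *Cdkn1b* 2405 bp against 4552 bp, so the RPKM of these 2 genes would be lower on the annotated lengths. The ratio of a single gene between libraries does not depend on its length, whereas summed levels do. On annotated lengths the D cyclin sum was 28.5% lower in *Igfbp7*-/- and the CIP/KIP sum 11.4% lower, close to the values from the deposited RPKM. The INK4 sum, however, was 2.68% lower in place of 30.1%. All these percentages keep the deposited scaling of the libraries and would change with it.

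*Cdk4*, the main catalytic partner, had 29.2 RPM in WT against 25.5 RPM in *Igfbp7*-/-, a ratio of 0.87 (0.77 to 0.99), and *Cdk6*, its close relative, had 7.43 and 8.31 RPM, a ratio of 1.12 (0.88 to 1.43). *Cdk2*, the partner of E and A cyclins, was 1.66-fold lower (1.41 to 1.96), with 22.6 and 13.6 RPM. The summed D cyclin level was 1.86 times that of *Cdk4* and *Cdk6* together in WT and 1.48 times in *Igfbp7*-/-, in RPKM. Of the pocket proteins that the kinases phosphorylate, *Rb1* was 2.32-fold higher in *Igfbp7*-/- (2.05 to 2.62), with 22.1 and 51.3 RPM. *Rbl1*, which encodes p107, was 5.42-fold lower (3.47 to 8.73), with 7.43 and 1.37 RPM, and *Rbl2*, which encodes p130, had a ratio of 0.86 (0.70 to 1.04). In this list of 6 genes, 1 was thus higher and 2 were lower past 1.5 times, beside 21.9% and 23.4% of all genes tested.

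Of all genes tested, 21.9% were higher and 23.4% lower, and the counts in this paragraph are set beside these shares without a test. Downstream of the D cyclins, 0 of 10 E2F and DP factors were higher and 3 were lower, with a median log2 ratio of -0.36. Those 3, named after their values were seen, were *E2f8* (8.48 RPM in WT, 0.80 RPM in *Igfbp7*-/-), *E2f1* (4.54 and 1.29 RPM) and *E2f2* (1.28 and 0.74 RPM, with a counting interval that included equal expression). Of 3 E and A cyclins past 1 RPM, 2 were lower, *Ccne1* by 3.43-fold (1.88 to 6.52) and *Ccna2*, chosen after its value was seen, from 9.85 to 0.40 RPM. *Ccne2* had a ratio of 1.17 (0.84 to 1.64). Among 21 proliferation genes past 1 RPM, 18 were lower and 1 was higher, with a median log2 ratio of -1.94 beside 0.04 for all genes. *Mki67*, which encodes the proliferation marker Ki-67, was 8.50-fold lower (7.31 to 9.98). *Ccnd2* lay on the same side as these genes, as did *Cdkn2c* and *Cdkn1c*, which both encode CDK inhibitors. Of 8 CDK-activating and CDK-tyrosine kinase or phosphatase genes, 2 were higher and 3 lower. *Wee1*, which encodes an inhibitory kinase of CDKs, was 2.82-fold higher (2.66 to 3.00). *Pkmyt1*, the other inhibitory kinase gene of this list and named after its value was seen, was among the 3 lower. It had 4.57 RPM in WT against 1.86 RPM in *Igfbp7*-/-.

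**Figure D4:**
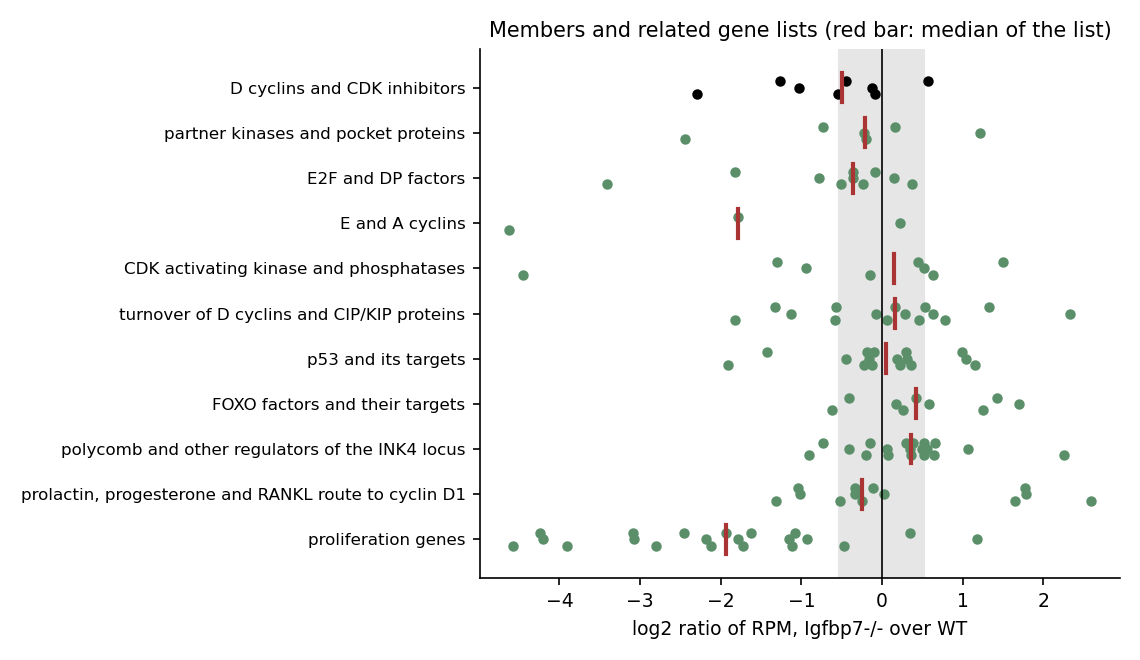
Log2 ratio of RPM, Igfbp7-/- over WT, of the 8 measurable D cyclin and CDK inhibitor genes (black) and of the genes of 10 related lists (green) that reached 1 RPM in either library, with the median of each list (red bar) and the quartiles of all genes tested (grey band). The proliferation genes have the lowest median, -1.94, followed by the 3 E and A cyclins at -1.78, and the D cyclin and CDK inhibitor genes have a median of -0.49.

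The lists of regulators of the D cyclins and inhibitors held genes called in both directions, as all genes did (21.9% higher and 23.4% lower). Among 15 genes for the turnover of D cyclins and CIP/KIP proteins, 4 were higher and 3 lower, with a median log2 ratio of 0.15. *Fbxo31*, an F-box protein that targets cyclin D1 for degradation, was 5.05-fold higher (3.58 to 7.27), with 2.33 RPM in WT against 11.8 RPM in *Igfbp7*-/-. *Ambra1*, which directs D cyclins to a ubiquitin ligase and is named here after its value was seen, had 52.2 and 130.9 RPM. *Skp2*, which directs p27 to degradation, was 2.5-fold lower (1.20 to 5.59) at 1.57 and 0.63 RPM, and *Cryab* had 140.1 and 63.8 RPM. These are transcript levels and do not give the protein.

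Of 16 genes for p53 and its targets, 3 were higher and 2 lower, with a median log2 ratio of 0.05. *Trp53* had 51.3 RPM in WT against 47.8 RPM in *Igfbp7*-/- (ratio 0.93, 0.85 to 1.03), and *Mdm2*, a target and inhibitor of p53, had a ratio of 1.28 (1.21 to 1.36). *Bbc3* was 2.23-fold higher (1.71 to 2.93) and *Phlda3* 3.76-fold lower (3.03 to 4.74). Of the 16, 11 stayed within 1.5 times, as did *Cdkn1a*, beside 45.3% of all genes tested that did not.

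Of 9 FOXO factors and targets past 1 RPM, 3 were higher and 1 was lower, with a median log2 ratio of 0.42. *Foxo3*, a factor known to induce *Cdkn1b*, was 3.24-fold higher (2.96 to 3.54), and *Fbxo32*, a FOXO target, was 1.53-fold lower (1.42 to 1.66). Of 19 polycomb genes and other regulators of the INK4 locus, 4 were higher and 2 lower (median log2 ratio 0.35). *Ezh2*, the polycomb methyltransferase, had 21.2 and 18.5 RPM, a ratio of 0.87 (0.75 to 1.02). *Ets2* was 2.09-fold higher (2.04 to 2.15) and *Ets1* 1.67-fold lower (1.60 to 1.73), and both encode factors known to act on *Cdkn2a*.

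Of 13 genes of the prolactin, progesterone and RANKL route to cyclin D1, 4 were higher and 3 lower, with a median log2 ratio of -0.25. *Prlr*, the prolactin receptor, was 3.4-fold higher (3.08 to 3.76). *Igf2*, known in the gland as a mediator of prolactin on cyclin D1, was 2.49-fold lower (2.21 to 2.81). *Pgr*, the progesterone receptor, chosen after its value was seen, had 0.93 and 5.60 RPM. The other lower genes, also named after their values were seen, were *Stat5a* (64.8 RPM in WT, 31.4 RPM in *Igfbp7*-/-) and *Tnfrsf11a* (77.1 and 38.3 RPM). The other higher genes, named in the same way, were *Myc* (107.6 and 335.6 RPM) and *Wnt4* (1.54 and 5.34 RPM). *Prlr* and *Pgr* are also among the hormone-sensing luminal markers below.

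Markers of several cell types also differed between the libraries. Their counts past 1.5 times are set beside the 23.4% lower and 21.9% higher of all genes tested, without a test. Of 9 myoepithelial markers, 8 were lower in *Igfbp7*-/-, and their sum was 3785 RPM in WT against 1203 RPM in *Igfbp7*-/-, with *Acta2* at 1052 and 226.7 RPM. Of 7 endothelial markers 6 were lower, of 9 leukocyte markers 8, of 7 fibroblast markers 4 (sums of 9237 and 4740 RPM) and of 5 pericyte markers 3 (150.7 and 126.4 RPM). Of 4 adipocyte markers past 1 RPM, 3 were lower and 1 was higher, with sums over the 6 listed of 562.9 and 192.4 RPM, and of 3 Schwann cell markers 2 were lower (64.3 and 38 RPM over 4). Of 9 secretory markers 6 were lower and 2 higher (sums of 126554 and 49033 RPM). Named after their values were seen, the lower ones were *Csn2*, *Csn3*, *Csn1s1*, *Wap*, *Lalba* and *Glycam1*, and the higher ones *Krt8* and *Krt18*. By contrast, 5 of 6 hormone-sensing luminal markers were higher (148.3 and 239.9 RPM). None of the 3 erythroid markers past 1 RPM differed by 1.5 times. The part of these cells in the lower values of *Ccnd2*, *Cdkn1c* and *Cdkn2c* was not tested. In bulk RNA, fewer cells of a type and less RNA per cell cannot be told apart.

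**Figure D5:**
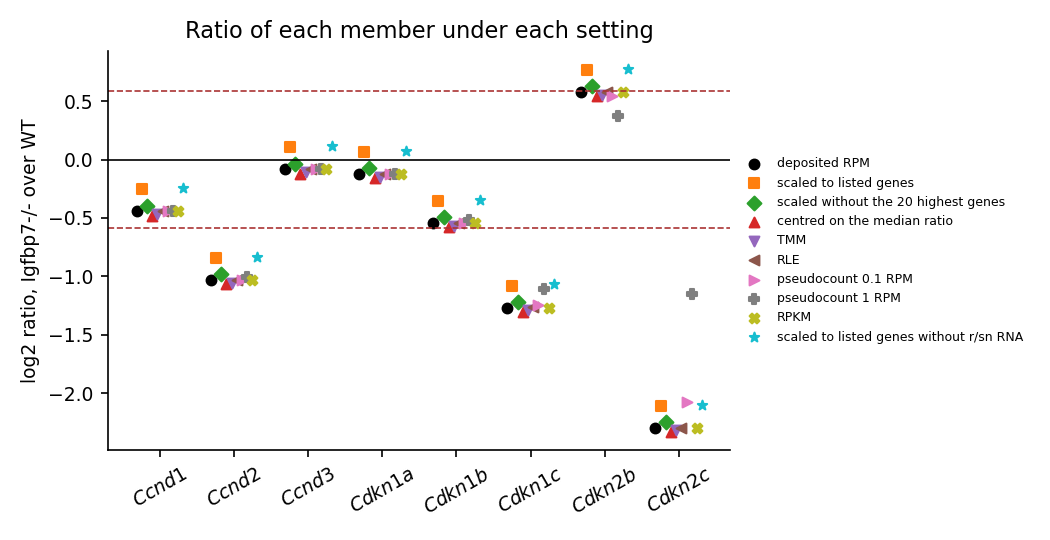
Log2 ratio, Igfbp7-/- over WT, of the 8 measurable genes from the deposited RPM (black) and under 9 other settings (symbols), with dashed lines at a fold of 1.5. Ccnd2, Cdkn1c and Cdkn2c stay below the lower line under every setting drawn, Ccnd3 and Cdkn1a lie on both sides of 0, and Cdkn2b lies on both sides of the upper line.

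The 9 other settings for the ratio were other scalings, pseudocounts and RPKM, of which RPKM leaves the ratio of a gene unchanged by construction. They left the calls of *Ccnd2* (log2 ratio -1.07 to -0.83), *Cdkn1c* (-1.30 to -1.07) and *Cdkn2c* (-2.33 to -1.15) in place. *Cdkn1b* (-0.58 to -0.34) and *Ccnd1* (-0.48 to -0.24) stayed below 0 and inside 1.5 times. *Ccnd3* ranged from -0.12 to 0.11 and took either sign. *Cdkn2b* ranged from 0.37 to 0.78 and passed 1.5 times when scaled to the listed genes, with ribosomal and small nuclear RNA kept or removed, or without the 20 highest genes. Centred on the median of all genes it was at 0.54, short of the threshold of 0.58.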

How the data were processed

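At lactation day 3, RNA of MECs freed of lineage-positive cells was sequenced on a SOLiD instrument, 1 library per genotype. Per the methods, the authors mapped paired-end reads with a Bowtie pipeline in GeneSifter, allowing at most 3 mismatches, and filtered mitochondrial, ribosomal and small nuclear RNA. The submitters' processing notes name Bowtie 0.12.3, SAMtools 0.1.15 and mm9, whereas the methods name a human build. The gene annotation and the handling of reads with several matches are not given in the sources used here. The authors deposited a raw read count per gene, the RPM (the count scaled to a library total that includes reads outside the listed genes) and the RPKM (RPM per kilobase). Ribosomal RNA was still listed, at 2.95% of the WT and 3.15% of the *Igfbp7*-/- total. The 50 rows without a symbol (0.0495% and 0.0670% of the counts) were left out.

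The members and the gene lists were chosen with earlier results of these data known. Ratios were taken from the deposited RPM without a pseudocount, for genes that reached 1 RPM in either library, and called at a fold of 1.5. Counts of 1 to 20 were even in 75.8% (WT) and 74.1% (*Igfbp7*-/-) of genes, so 95% Clopper-Pearson intervals were computed on read pairs, and they cover counting error only. Named genes were the 10 members, *Igfbp7*, fixed partners and regulators, and in each pathway list the genes with the highest and the lowest ratio past 1.5 times among those with at least 10 RPM, which are thus chosen by their values. Genes outside this rule are marked in the text. Alternatives were other scalings (TMM and RLE of edgeR 4.0.16 among them), pseudocounts, RPKM, gene lengths, minimum levels and thresholds. Python 3.11.15, scipy 1.17.1 and pandas 2.3.3 were used, and the scripts were tested on simulated counts. One erythroid marker is not reported here.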

Additional observations from a re-analysis of the deposited data

How the results depend on the processing

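Of 81 values of single genes under other scalings, pseudocounts or RPKM, 74 stayed within the counting interval of the main value and 7 moved outside it. Among the called genes, 0 changed sign, though little else was possible. Pseudocounts and RPKM cannot change a sign, and the called log2 ratios were -1.03 or lower. The scalings moved the median log2 ratio of all genes from 0.04 to at most 0.24. *Ccnd3* and *Cdkn1a*, which were not called, took either sign. The 74 include values that had no room to move. RPKM divides both libraries by the same gene length, so its ratios equal those of RPM. For *Cdkn2d*, on 4 and 2 reads, the interval of the log2 ratio ran from -6.91 to 3.24. Lower calls among the 10 genes numbered 3 in 11 of the other 14 settings. They numbered 2 with at least 10 RPM in one library or 1 RPM in both, since *Cdkn2c* then dropped out, and 4 without a minimum, where *Cdkn2d* entered on 4 and 2 reads. Higher calls numbered 1 in place of 0 under 4 settings. That gene was *Cdkn2b* after scaling to the listed genes, to those genes less ribosomal and small nuclear RNA (chosen after seeing the data) or without the 20 highest genes, and *Cdkn2a*, with 0 and 6 reads, without a minimum. The median log2 ratio of the 8 genes, -0.49, was -0.31 and -0.29 under the first 2 of these scalings. Over all genes, 3068 were higher and 3280 lower. Without a minimum the counts were 5226 and 5841, with at least 10 RPM in one library 1706 and 1680, and at a fold of 2 they were 1417 and 2005. No paired analysis was possible because each genotype had 1 library, and for the same reason no replicate could be left out. Depth limits *Cdkn2a*, *Cdkn2b*, *Cdkn2c* and *Cdkn2d*, whose values rest on at most 77 reads.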

Other observations

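Some relatives of the 10 genes that belong in no comparison above were looked up after the data were seen. *Kcnq1ot1*, the long non-coding RNA of the imprinted domain on chromosome 7 that holds *Cdkn1c*, had 103.8 RPM in WT against 120.9 RPM in *Igfbp7*-/- MECs, a ratio of 1.16 (95% Clopper-Pearson interval 1.09 to 1.24, 1 library per genotype), whereas *Cdkn1c* had 10.9 and 4.54 RPM. *Cdkn3*, a phosphatase that bears a CDK inhibitor name, had 11 and 8 reads and stayed below 1 RPM. *Ccndbp1*, which encodes a cyclin D binding protein, had 4.43 and 8.45 RPM, 1.91-fold higher in *Igfbp7*-/- (1.44 to 2.55).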
